A study of Homo sapiens with 4 samples.

Results

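The regions described here are the peaks of 3 ChIP-seq lists whose deposited start lay between positions 152000000 and 154000000 of chromosome 1 (hg19). This interval is described as holding the epidermal differentiation complex (EDC) and the S100 genes. It was read as 2 blocks, the EDC block from 152000000 to 153300000 (1.3 Mb) and the S100 block from there to 154000000 (0.7 Mb). Together they held 167 of the 128734 regions of the 3 lists: 46 of 11604 for 53BP1, 69 of 62530 for Pol II S5p and 52 of 54600 for Pol II S2p. The rule used position only, but it was chosen with earlier results of these data known. Positions are 1-based.

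The lists came from MCF10A, a non-tumour human breast epithelial cell line grown under its usual conditions, with no treatment or second genotype. The ChIPs were directed at 53BP1, a chromatin-bound protein of the DNA damage response, and at RNA polymerase II carrying phosphate on serine 5 (S5p, typical of early transcription) or on serine 2 (S2p, typical of elongation) of its C-terminal repeats. An input was also part of the series and was not analysed here. Each ChIP had 1 library and its read depth is unknown, so no value can be set against a spread between replicates, no test between conditions was possible, and a region missing from a list was not detected rather than absent. The fold of a region is the authors' enrichment over background and was used to rank regions within a list. Percentiles give the share of that list with a lower fold.

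The EDC is a run of genes that act late in the life of a keratinocyte, when the cell replaces its membrane with the cornified envelope. Its families are the filaggrin-type genes, the late cornified envelope (LCE) genes, the small proline-rich (SPRR) genes, involucrin (IVL) and loricrin (LORICRIN). Next to them lie S100 genes, which code for small calcium-binding proteins, several of them abundant in epithelia. p63, a member of the p53 family that the title of the series refers to, is known as a regulator of stratified epithelia.

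All 61 genes listed for these families were found on chromosome 1 of the RefSeq table for GRCh38.p14. Along the chromosome that table gives S100A10 and S100A11, then the filaggrin-type genes TCHHL1, TCHH, RPTN, HRNR, FLG, FLG2 and CRNN, then the LCE genes, then SMCP, IVL and the SPRR genes, then LELP1, PRR9, LORICRIN, PGLYRP3 and PGLYRP4. After these come S100A9, S100A12, S100A8, S100A7A and S100A7, and then S100A6, S100A5, S100A4, S100A3, S100A2, S100A16, S100A14, S100A13 and S100A1. That build is not the build of the peak lists. The order is therefore given as orientation, no gene was tied to a region, and the block names were not checked against gene positions.

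The S100 block was crowded with regions of all 3 lists, and the EDC block was sparse in 53BP1 and S2p beyond its first 25 kb. The S100 block held 41 53BP1 regions, or 58.6 per Mb, against 3.96 per Mb over all chromosomes kept, which is 14.8 times as dense. The EDC block held 5, or 3.85 per Mb, which is 0.971 times the overall density. With the authors' −log10 q-value at 5 or more, the S100 block was still 12.1 times as dense in 53BP1 as the whole, and with the upper 50% of the list by fold 11.5 times. The EDC block was at 0.812 and 0.389 times the whole under these limits. No test was made of these densities, since regions of 1 library are not replicates.

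For Pol II the blocks differed more in S2p than in S5p. The EDC block held 26 S5p regions, 0.937 times the 21.3 per Mb found over all chromosomes kept, and they covered 3.04% of its bases against 4.48% overall. It held 6 S2p regions (4.62 per Mb, against 18.6), covering 1.28% against 5.38%. The S100 block held 43 S5p regions (61.4 per Mb) covering 28.1% of its bases, and 46 S2p regions (65.7 per Mb) covering 32.9%. S2p in the EDC block was at 0.248 times the overall density. With −log10 q-values from 5 up, the EDC block was at 1.38 times the overall density for S5p and 0.453 times for S2p, and with the upper 50% of each list by fold at 1.23 and 0.248 times.

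**Figure D1:**
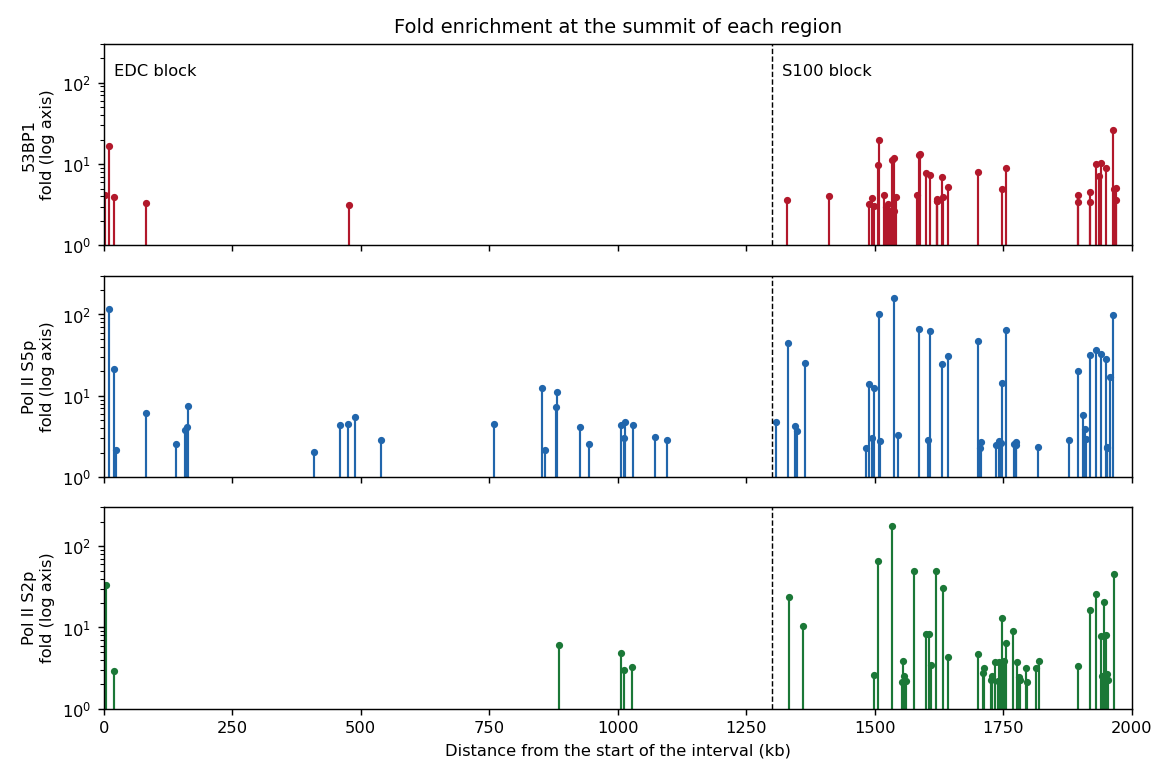
Fold enrichment of each region (vertical log axis) at its summit, plotted by distance in kb from the start of the interval, for 53BP1, S5p and S2p; each stem is a region and the dashed line is the edge between the blocks. Strong regions stand at the far left of the EDC block and in parts of the S100 block, with weaker stretches between those parts. The rest of the EDC block has S5p folds of at most 12.4.

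In each list, the region of largest fold in the EDC block lay in its first 25 kb, a limit set after the values were seen. There the S5p region from 152001133 to 152010103 had a fold of 118 (99.7th percentile) and was the widest S5p region of the block, at 8971 bp. The S2p region from 152000792 to 152009775 almost coincided with it, with a fold of 32.9 (98.4th percentile). It carried a pair of 53BP1 regions. That at 152008765 to 152009763 had a fold of 16.8 (97.5th percentile), and its summit was 3 bp from the S5p summit. That at 152003080 to 152003592 had a fold of 4.11, and its summit was 329 bp from the S2p summit, which lay 5775 bp from the S5p summit. The 2 summits of polymerase in this region were thus each accompanied by 53BP1, the weaker at S2p. A further S5p region at 152019203 to 152021946 (fold 21.5) held a 53BP1 region of fold 3.90 at 152020217 to 152021047 and a weak S2p region, at 152019917 to 152021080 (fold 2.96), with all 3 summits within 17 bp.

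The other 1275 kb of the EDC block held 2 53BP1 regions, both near the bottom of the list. The first, at 152082985 to 152083249, had a fold of 3.29 (2.84th percentile) on an S5p region of fold 6.20, with no S2p nearer than 61904 bp. The second, at 152476173 to 152476461, had a fold of 3.15 (2.09th percentile). It met its S5p region (fold 4.51) by 162 bp, with its summit outside it. Their −log10 q-values were 2.70 and 2.27, so neither remained with the limit of 5. From 152476462 to 153330155, a stretch of 854 kb that runs across the edge into the S100 block, no 53BP1 region was called. In all, 16 S5p and 4 S2p regions lay inside this stretch.

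Serine 5 phosphorylated polymerase was nevertheless found along the EDC block, mostly without S2p. In the 1275 kb there were 23 S5p regions with a median fold of 4.33 and a highest of 12.4, and 3 of them met S2p. The strongest were at 152851937 to 152853387 (fold 12.4, 84.1st percentile, no S2p), 152880267 to 152885905 (fold 11.2, with S2p) and 152163357 to 152164113 (fold 7.45, no S2p). The S2p regions of this stretch numbered 4. That at 152883978 to 152886049 had a fold of 6.08, and those at 153004910 to 153007446, 153027133 to 153028311 and 153011063 to 153011735 had folds of 4.90, 3.27 and 2.98. None of the 4 held 53BP1. The S2p signal of the block beyond its first 25 kb was therefore limited to 2 places, the region that starts at 152883978 and the stretch from 153004910 to 153028311.

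Over the whole EDC block, 5 of 26 S5p regions met S2p (19.2%, exact 95% interval 6.55 to 39.4), against 60.2% of the S5p list. Below the strongest quintile (the upper 20% of the list by fold), 2 of 22 S5p regions met S2p in the EDC block, against 56.2% of such regions in the list and 15 of 23 in the S100 block. These intervals express counting error only, as if regions were independent of each other. The emptiest stretches of the interval also lay here. No list had a region from 152164114 to 152409237 (245 kb), from 152539420 to 152758554 (219 kb), or from 153095774 to 153307262 (211 kb), which runs across the edge between the blocks.

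**Figure D2:**
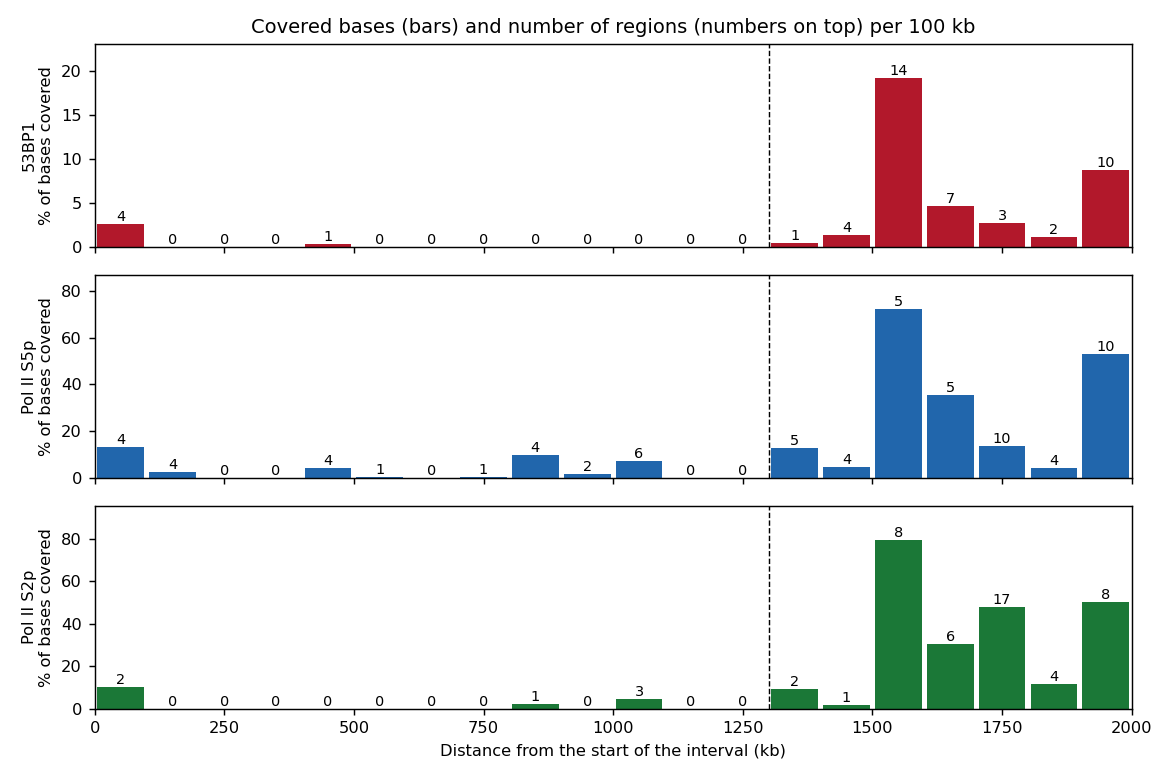
Share of bases covered by regions of each list (bars) and number of regions (the value on top of each bar) in each of the 20 stretches of 100 kb, by distance from the start of the interval. 53BP1 was found in 2 of the 13 stretches of the EDC block and in all 7 of the S100 block, where 1 stretch held 14 regions.

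Each of the 7 stretches of 100 kb in the S100 block had at least 1 region of every list. The stretch from 153500001 to 153600000 held 14 53BP1 regions, and 19.3% of its bases were in them. S5p covered 72.4% of it and S2p 79.6%. Of the 13046 stretches of 100 kb in the genome with a region of any list, 2 held 14 or more 53BP1 regions, this one included. Its 14 regions included very weak ones, down to a fold of 2.64. The −log10 q-value there was 1.45, and the lowest in the list was 1.32. The count of stretches was not repeated with the limit of 5. The next most crowded stretches of the S100 block held 10 (153900001 to 154000000) and 7 (153600001 to 153700000).

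The widest S5p region and the widest S2p region of the interval began in this crowded stretch, from 153500001 to 153600000. They are described with neighbouring domains in or next to it, picked by S5p fold and width among the S5p regions that held 53BP1. Other wide regions lay elsewhere in the block, such as the S2p region from 153899127 to 153924679 (25553 bp). The S5p region from 153512898 to 153542150 was 29253 bp wide and had the largest S5p fold of the interval, 158, which ranked 59th in the list. The S2p region on it, from 153513450 to 153542004, was nearly as wide and had an S2p fold of 175, ranking 8th of 54600. To its left, the S5p region from 153503253 to 153509621 (fold 102) lay on an S2p region from 153502017 to 153509375 (fold 66.6). To its right, the widest S5p region, from 153564751 to 153603085 (38335 bp, fold 65.8), overlapped the widest S2p region, from 153562654 to 153596034 (33381 bp, fold 49.9). Next came S5p from 153605527 to 153622744 (fold 63.4) with S2p from 153611530 to 153623493 (fold 50.2). These neighbouring domains carried 18 of the 41 53BP1 regions of the block. Since holding 53BP1 was part of how the domains were picked, this count is a description only.

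The 29 kb domain carried 8 53BP1 regions, which differed widely in strength. From left to right, their folds were 4.11, 2.97, 3.23, 2.64, 11.1, 2.64, 11.8 and 3.92. The pair above 10 lay at 153530378 to 153533513 and at 153537625 to 153539861. The summit of the first of these was 157 bp from the S2p summit, and that of the second 78 bp from the S5p summit, while the S5p and S2p summits were 4931 bp apart. The other 6 regions were weak, at or below the 16.4th percentile of the 53BP1 list.

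The 6 kb domain to its left showed a similar arrangement with fewer regions. Its 53BP1 region of fold 19.6, at 153507702 to 153509430, had its summit 30 bp from the S5p summit. Its other 53BP1 region, of fold 9.75 at 153504654 to 153506892, had its summit 3 bp from the S2p summit, 2386 bp away from that of S5p.

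**Figure D3:**
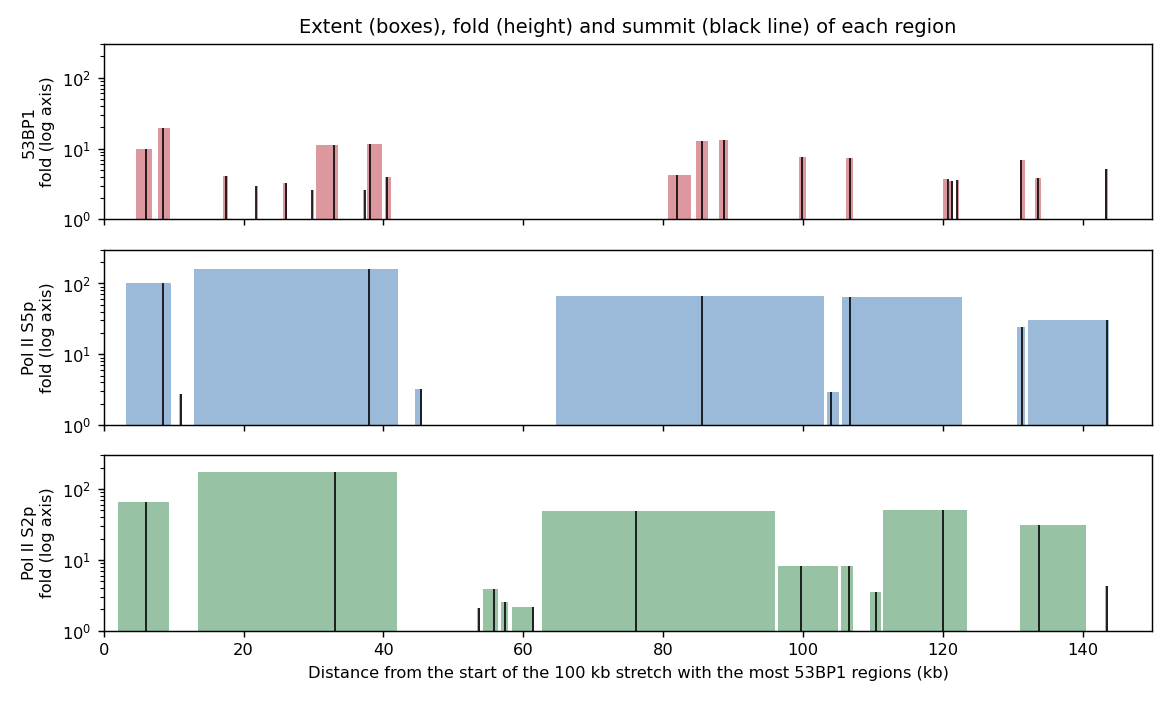
The 150 kb from 153500001, with each region as a box (width, its extent; height, its fold on a log axis) and its summit as a black line, for 53BP1, S5p and S2p; the horizontal axis is the distance in kb. The 53BP1 boxes are short and stand inside the broad S5p and S2p boxes, the taller of them mostly under a polymerase summit.

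In 9 S5p regions of the S100 block that held 53BP1, the summit of the strongest overlapping S2p region lay 2 kb or more from the S5p summit, a limit chosen after the values were seen. In all 9 a 53BP1 summit lay within 500 bp of the S5p summit (5 to 101 bp), against 92.7% of 1949 such regions in the whole list. In 4 of the 9 a further 53BP1 summit lay within 500 bp of the summit of that strongest S2p region, and 15.1% in the whole list had a 53BP1 summit at both. Weaker overlapping S2p regions were not counted. In the S5p regions from 153564751, 153605527 and 153943872, outside the 4, such a weaker S2p summit had a 53BP1 summit at 177, 82 and 80 bp. For the S5p region from 153630692 the S2p summit, at 153633760, lay outside it and was also that of the S5p region from 153632197. Regions with only 1 53BP1 region cannot show both. Among those with 2 or more 53BP1 regions the shares with both were 4 of 6 in the S100 block and 44.6% of 662 in the list. With so few regions, these shares are given as a description only.

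Distances were next taken to the nearest summit of an overlapping region of each mark, strongest or not. Of the 37 53BP1 summits of the S100 block that lay inside both marks, 9 were within 500 bp of the S5p summit only, 6 within 500 bp of the S2p summit only and 8 within 500 bp of both. The other 14 were near neither. The 23 near a polymerase summit had a median 53BP1 fold of 7.71, and the 14 near neither had 3.66. The folds of the groups overlapped, since the 23 went down to 3.09. These counts were not made over the list, so they are not given as particular to the block. Among the 14, the region at 153935506 to 153936863 had a fold of 7.04. The largest fold among the 14 was 13.3, of the region at 153587966 to 153589343. The summit of this region lay 3259 bp from the S5p summit of the 38 kb domain. That S5p summit had its own 53BP1 region, at 153584666 to 153586475 (fold 12.9), with a summit 32 bp away. The wide domain thus carried a pair of 53BP1 regions of about equal fold, beside weaker ones of fold 4.21 and 7.71. The summit of the strongest S2p region on this domain lay 9331 bp from that of S5p and had no 53BP1 summit nearer than 5843 bp. A weaker S2p region on it, from 153596451 to 153605081 (fold 8.31), had the summit of the 53BP1 region of fold 7.71 at 177 bp from its own.

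**Figure D4:**
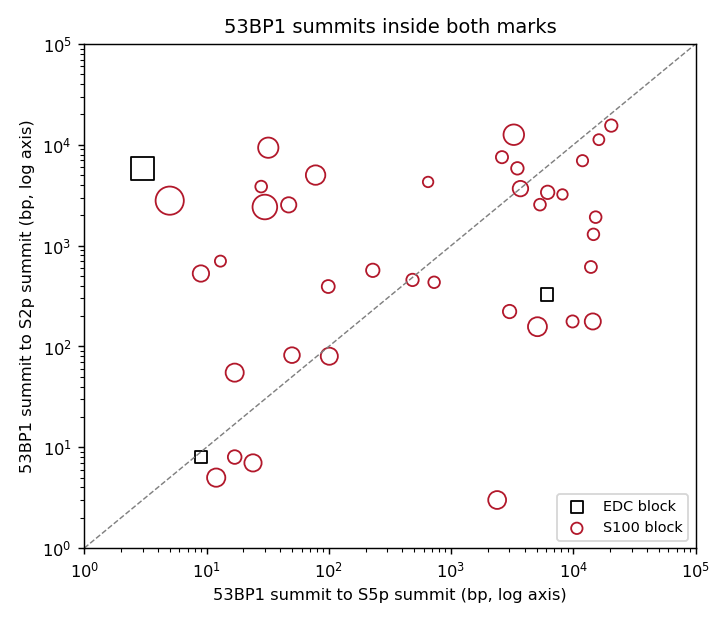
Distance in bp from each 53BP1 summit to the nearest overlapping S5p summit (horizontal) and S2p summit (vertical), on log axes, for the 40 53BP1 summits inside both marks; the area of a symbol grows with the 53BP1 fold and the dashed line marks equal distances. The large symbols lie mostly to the left, within 101 bp of S5p, and the medians in the S100 block were 727 bp to S5p and 1294 bp to S2p. Counted singly, 21 summits of the S100 block were nearer to S2p and 16 nearer to S5p, and in the EDC block 2 and 1.

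At the other end of the S100 block was the strongest 53BP1 region of the interval, at 153963036 to 153963855. Its fold of 26.0 ranked 86th of 11604 (99.3rd percentile), and its summit was 5 bp from the summit of the S5p region from 153962738 to 153969794 (fold 99.4, 7057 bp wide). The S2p region there, from 153962961 to 153970290, had a fold of 45.6 and a summit 2789 bp from that of S5p. The S5p region held 3 more 53BP1 regions, with folds of 4.98, 3.57 and 5.04. The first of them, at 153965553 to 153967615, had its summit 222 bp from the S2p summit.

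At the remaining strong 53BP1 regions of the block, the S5p and S2p summits lay close together. Those at 153939479 to 153940687 (fold 10.2) and 153930596 to 153931360 (fold 10.0) had summits 12 and 17 bp from S5p summits and 5 and 55 bp from S2p summits. At 153755893 to 153756453 (fold 8.99) the S5p region was only 1451 bp wide (153755194 to 153756644) and reached 64.1-fold, and the S5p and S2p summits were 17 bp apart. In these 3 places S5p, S2p and 53BP1 thus peaked together.

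The median 53BP1 fold of the S100 block was 4.59, below the 6.02 of the whole list, although its polymerase folds included some of the largest. Of its 41 53BP1 regions, 10 were in the strongest quintile of the list and 20 in the weakest. Many of the weak ones shared an S5p region with a stronger one. Of the 19 S5p regions of the block that held 53BP1, 9 held more than 1 (47.4%, against 12.6% of the 9507 in the list), and these 9 held 30 of the 53BP1 regions. Regions in 1 domain share a source and are not independent. These shares were not matched for width, and 30.2% of the S5p regions of the block were 5 kb or wider, against 8.09% of the list. In 8 of the 9, the 53BP1 region nearest to the S5p summit was also that of largest fold. The same count was not made over the list, so it is not given as particular to the block.

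53BP1 met S5p in 40 of 41 regions of the S100 block and in all 5 of the EDC block, against 97.6% of the 53BP1 list. It met S2p in 37 of 41 (90.2%, exact interval 76.9 to 97.3) and 3 of 5, against 78.9%, which the interval of the S100 block includes. The exception to S5p was the region at 153411153 to 153411486 (fold 4.03, 13.9th percentile), which met neither mark and lay 47222 bp from the nearest S5p region. The 135 kb around it without S2p, from 153363610 to 153498292, held 2 more weak 53BP1 regions, at 153488368 to 153488597 (fold 3.27) and 153495461 to 153495684 (fold 3.83). The first lay inside an S5p region, and the second met its S5p region by 72 of its 224 bp, with its summit outside. With the 53BP1 summit required inside the S5p region, the share of S5p regions of the S100 block with 53BP1, given next, was 41.9%.

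Seen from the polymerase, 19 of 43 S5p regions of the S100 block held 53BP1 (44.2%, 29.1 to 60.1), and 4 of 26 did in the EDC block (15.4%, 4.36 to 34.9), against 15.2% of the S5p list. With −log10 q-values from 5 up the EDC share was 9.09% against 21.0% of the list, and with the upper 50% of each list by fold it was 5.88% against 17.2%. With the edges moved inwards by 100 kb it was 4.55%. Of the 43 S5p regions of the S100 block, 20 were in the strongest quintile by S5p fold. Of these 20, 18 held 53BP1, against 71.4% of that quintile in the list. With the share of the list in each of 50 equal steps of S5p fold, the 43 regions would sum to 17.3 with 53BP1 (19 found) and the 26 of the EDC block to 2.91 (4 found). The 4 of the EDC block included 2 in its first 25 kb, at fold steps where 99.8% and 79.2% of the list held 53BP1. Below the strongest quintile, 53BP1 was held by 2 of 22 S5p regions of the EDC block and 1 of 23 of the S100 block. The share of such regions in the list was 1.15%. Whether S5p strength accounts for the shares of the blocks was not tested. Width was not matched, and in the strongest quintile the median S5p width was 5467 bp in the S100 block against 2482.5 bp in the list. No such sum was made under the stricter limits, where the EDC share was below that of the list.

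The strongest S5p regions without 53BP1 were few. In the S100 block they were at 153358780 to 153363930 (fold 25.2, 90.6th percentile), where 88.8% of S5p regions of like fold held 53BP1, and at 153958090 to 153959487 (fold 17.2), where 63.6% did. The first had S2p of fold 10.4 on it, and the second had none. In the EDC block they were the regions of fold 12.4 and 11.2 named above, at fold steps where 45.8% and 29.9% held 53BP1. Next to the first of these in the S100 block lay the S5p region from 153329513 to 153335295. Its folds were 44.0 for S5p and 23.8 for S2p, while its 53BP1 region, at 153330156 to 153330559, had a fold of only 3.57 (6.51st percentile). Both of these S5p regions near the left end of the S100 block were thus strong in polymerase and weak or undetected in 53BP1.

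**Figure D5:**
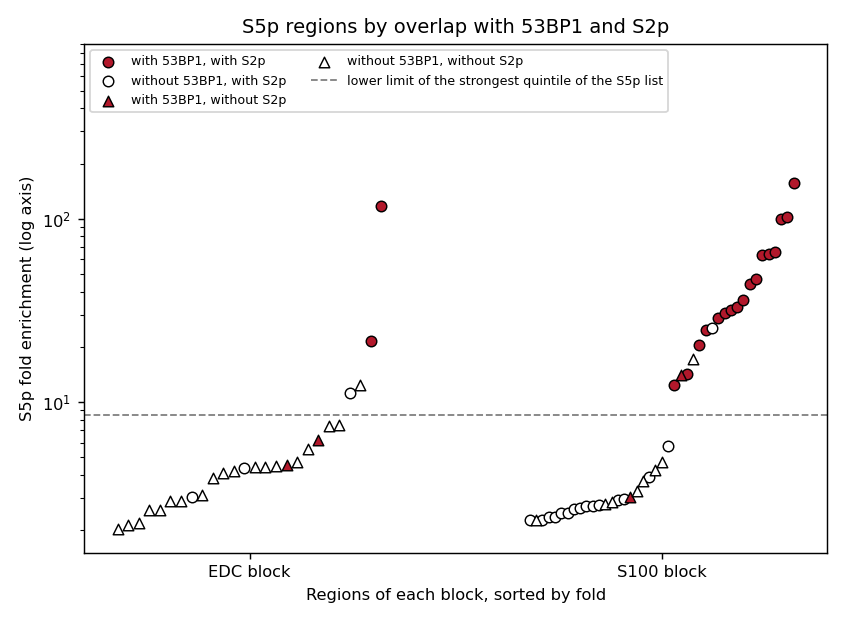
S5p fold (log axis) of all 69 S5p regions, sorted within each block; filled symbols overlap 53BP1, circles overlap S2p, triangles do not, and the dashed line is the lower limit of the strongest quintile of the S5p list. Above the line 18 of 20 regions of the S100 block are filled, and below it the EDC block has mostly open triangles and the S100 block mostly open circles.

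S2p regions without S5p were about as common in the S100 block as in the list, and none held 53BP1. Of the 46 S2p regions, 27 met S5p (58.7%, against 54.9% of the S2p list), with a median fold of 8.31. The 19 that did not (41.3%, against 45.1% of the list) had a median fold of 2.53 and a highest of 3.87. In the whole list 53BP1 was found in 6 of the 24598 S2p regions without S5p. 53BP1 was found in 19 of the 46 (41.3%, against 13.9% of the S2p list) and in 2 of the 6 S2p regions of the EDC block, in each case on S2p regions that also met S5p. From 153756454 to 153894771, 138 kb had no 53BP1 region but 8 S2p and 5 S5p regions, and the S2p region of largest fold among them ran from 153766463 to 153777087 (fold 9.12, 10625 bp wide). That region met 3 weak S5p regions, at folds of 2.48 to 2.72.

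All 3 edges fell between regions. Just outside the left edge, the S2p region from 151947932 to 151966870 (fold 49.0) and the 53BP1 region from 151964763 to 151966895 (fold 4.79) were left out, and just inside lay the 53BP1 region of fold 4.11 at 152003080. The last 53BP1 region inside the right edge began at 153969344 (fold 5.04), and the next beyond it at 154155028 (fold 14.6).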

How the data were processed

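ChIP-seq regions of 53BP1, Pol II S5p and Pol II S2p in MCF10A cells were used as deposited by the authors, 1 list per library; groups came from the sample titles. Per the submitters' processing notes, bcl2fastq 2.20.0.422 was used and the genome build was hg19. The sources used here give no aligner, peak caller, settings or control. Each deposited region has a fold enrichment, the authors' ratio over background, a −log10 q-value from their caller and a summit offset. Read depth is unknown.

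Chromosomes 1 to 22 and X were retained. Overlap means 1 bp or more. Density is per Mb from the first to the last region of each chromosome (2931 Mb in all). Lists were divided by fold into 5 and 50 equal parts. Intervals are exact Clopper-Pearson at 95%. Named were all 53BP1 regions of the EDC block, the 10 of largest fold in the S100 block, and per block and polymerase list the 5 of largest fold and the widest; others were singled out after their values were seen. Members and lists were chosen with earlier results of these data known. The gene-level count, planned for an annotation of the same build, was not run. The overlap code was tested on simulated data. Software was matplotlib 3.10.9, pandas 2.3.3, numpy 2.4.6 and scipy 1.17.1 under Python 3.11.15.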

Additional observations from a re-analysis of the deposited data

How the results depend on the processing

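Of 58 alternatives of the counts and shares, 43 stayed within 1.5 times the count or inside the interval of the share. This tally depends on the width of each interval and does not measure stability. The interval of the S2p cover (32.9%) treated single bases as independent, so it was very narrow and every alternative of that share fell outside. That of the EDC share with 53BP1 was wide (4.36 to 34.9), so that 4.55% fell inside. Limiting the lists to −log10 q-values from 5 up left 3 53BP1 regions in the EDC block and 24 in the S100 block, and 31.4% of S100 block bases lay in S2p. With the upper 50% of each list by fold, the EDC block kept 1 53BP1, 17 S5p and 3 S2p regions, the S100 block 16, 24 and 27, and S2p covered 29.6%; such limits remove regions by construction. Edges moved outwards by 100 kb gave 8 53BP1 regions in the EDC block and an S2p cover of 31.6% in the S100 block; moved inwards, 1 and 25.7%. Without the first 25 kb, an alternative added after seeing the data, the EDC block had 2 53BP1 regions, and 8.70% of its S5p regions held 53BP1. Membership by summit or by any overlap changed no count. Ranking by −log10 q-value raised each of the 6 percentiles of the strongest regions, the most for S2p in the EDC block (98.4 to 99.7). The count of genes with a region at their start was not run for lack of an annotation of the same build. No paired analysis was possible because no ChIP was repeated. As depth is unknown, polymerase regions without 53BP1 may hold 53BP1 below detection.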
